A study of Mus musculus with 31 samples.

Results

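The genes described here are those of antigen presentation by the major histocompatibility complex (MHC), the machinery that displays peptides on the cell surface to T cells. The list holds every gene whose symbol starts with H2- and 19 partner genes, and a gene was kept when it had at least 10 counts in at least 3 libraries of a count table. Of 64 matching symbols, 50 met this minimum among the 55401 genes of the tables, 31 of them H2- genes. In each table a smaller number passed, 47 in cortex, 45 in CD11b+ microglia of females and 43 in those of males, and 41 passed in every one of the 3 tables. Of the 50 genes, 36 lie on chromosome 17, which carries the mouse MHC. Membership rests on the name and on this count minimum, which H2-Ea, for one, met through the few libraries that hold its reads.

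The 31 libraries came from mice of 13 months of age on a C57BL/6J background. Female APP/PS1 mice carry the human APPswe and PS1dE9 transgenes, expressed from the mouse prion protein promoter, and had either the wild-type Plcg2 gene (A+/wt/wt) or the PLCγ2-P522R codon change, introduced by CRISPR/Cas9, on both alleles (A+/ki/ki). Female A-/wt/wt mice carried neither. Male mice had no APP/PS1 transgenes and were wild-type (WT) or homozygous for the knock-in (KI). A codon change is not visible in counts per gene, so these could not check the knock-in labels. CD11b+ cells, selected with magnetic beads from the dissociated whole brain, were sequenced from 7 A-/wt/wt, 4 A+/wt/wt and 4 A+/ki/ki females and from 3 WT and 4 KI males. RNA of the temporo-occipital cortex, a tissue block with every cell type in it, came from 4 A+/wt/wt, 4 A+/ki/ki and 1 A-/wt/wt females. The labels give one batch tag to the males, another to the A+ females and a further one to the A- females of the CD11b+ libraries, so a difference between A+ and A- mice and one between batch tags cannot be told apart. Within each comparison of the knock-in with the wild type in CD11b+ cells the tag was the same, and the cortex labels carry none.

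Class I molecules pair a heavy chain with β2-microglobulin (B2m) and carry peptides from the cytosol, which are cut by the immunoproteasome, moved into the endoplasmic reticulum by the TAP transporter and loaded there with the help of tapasin, calreticulin and Pdia3. Class II molecules are pairs of an alpha and a beta chain that are guided by the invariant chain Cd74, freed of it by H2-DM and loaded with peptides from endosomes. Nlrc5 drives transcription of class I genes and Ciita that of class II genes, and both respond to interferon. Microglia of the healthy brain hold little class II protein and are known to express more of both classes when activated.

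Depth ranged from 25.2 to 43.1 M counts per library in cortex, from 18.9 to 25.1 M in CD11b+ cells of females and from 16.2 to 19.9 M in those of males. The members took 0.334 to 1.12% of the counts of a CD11b+ library and 0.0938 to 0.130% of those of a cortex library. A list of 15 microglia markers summed to 16320 to 40140 CPM (counts scaled to the size of the library) in CD11b+ libraries and 555 to 1235 CPM in cortex, and no marker of it was at 0. The CD11b+ libraries were not pure, since 15 neuron markers summed to 173.4 to 4174 CPM in them (12820 to 14140 in cortex). Mitochondrial genes took up to 24.5% of counts in an A-/wt/wt library (mouse 223) and 19.4% in an A+/ki/ki library (mouse 335). Mouse number 236 is given for an A- CD11b+ library and an A+ cortex library, and both labels were used as given. B2m lay within the range of the other libraries of the labelled group (1959 of 1002 to 2233 CPM and 170.4 of 161.3 to 182.2 CPM). Since B2m is among the genes compared, this is no check of the labels.

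Per kilobase of exon, B2m was the most abundant member in CD11b+ microglia of A-/wt/wt females, at 1890 ± 457 CPM per kb (SD, n = 7). The classical heavy chains H2-D1 and H2-K1, which present peptides to CD8 T cells, followed at 334.7 ± 72 and 206.7 ± 39.4 CPM per kb. The invariant chain Cd74 stood at 319.8 ± 96.1 CPM per kb, within the spread of H2-D1. The chaperones Calr and Pdia3, which serve glycoproteins in general, reached 225.6 ± 38.8 and 151.6 ± 27.8 CPM per kb. These class I components were above the class II chains H2-Eb1, H2-Ab1 and H2-Aa, which had 96.96 ± 33.3, 67.54 ± 19.6 and 42.86 ± 12.1 CPM per kb. H2-T23, a non-classical heavy chain that binds leader peptides for inhibitory receptors of NK cells, had 67.12 ± 13.7 CPM per kb and Ifi30, a thiol reductase of endosomes, 85.09 ± 21. The costimulatory ligand Cd86 was at 27.15 ± 5.04 CPM per kb, well above Cd80 at 3.872 ± 0.755 and the receptor Cd40 at 1.173 ± 0.268. The transactivators were low, Nlrc5 at 2.267 ± 1.01 and Ciita at 0.679 ± 0.306 CPM per kb.

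In cortex of A+/wt/wt females the order per kilobase began with B2m at 198.7 ± 9.97, Calr at 140.5 ± 16.9 and Pdia3 at 63.36 ± 6.47 CPM per kb (SD, n = 4). H2-D1, Cd74 and H2-K1 were at 30.4 ± 8.8, 19.32 ± 5.77 and 19.02 ± 2.07 CPM per kb, and H2-Aa at 1.978 ± 0.555. On the CPM scale, the A+/wt/wt mean of Cd74 was 790.4 ± 148 in CD11b+ cells and 32.43 ± 9.68 in cortex, that of B2m 2646 ± 337 and 170.9 ± 8.58, and that of Calr 849.7 ± 81.9 and 404.8 ± 48.7. The tables were scaled separately, so these levels are given side by side without a test. Class I heavy chains are close copies of each other and the authors counted uniquely mapped reads, so counts of single H2-K, H2-D, H2-Q and H2-T genes are uncertain to that extent. Exons of other genes overlap more than 20% of the exon length of 5 members, 86.4% in H2-Ke6, 29.4% in H2-T22, 29% in Tapbp, 27.1% in H2-T10 and 22.8% in H2-Oa, and reads were counted without strand.

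The proximal promoters of 5 members on which the comparisons turn are shown to place the control elements that the class I and class II genes share. They are the 250 bases before the annotated start, from RefSeq on GRCm38.p6, read 5′ to 3′ on the strand of the gene, and capitals mark the motif letters searched. The H2-Ob window is chr17:34238655-34238904 on the plus strand, that of H2-Aa chr17:34287824-34288073 (minus), that of H2-Eb1 chr17:34305617-34305866 (plus), that of H2-K1 chr17:34000348-34000597 (minus) and that of B2m chr2:122147437-122147686 (plus).
H2-Ob: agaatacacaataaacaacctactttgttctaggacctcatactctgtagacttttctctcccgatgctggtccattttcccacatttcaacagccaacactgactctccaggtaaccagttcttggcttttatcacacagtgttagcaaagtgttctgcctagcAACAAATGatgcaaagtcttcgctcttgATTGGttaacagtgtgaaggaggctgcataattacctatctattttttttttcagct
H2-Aa: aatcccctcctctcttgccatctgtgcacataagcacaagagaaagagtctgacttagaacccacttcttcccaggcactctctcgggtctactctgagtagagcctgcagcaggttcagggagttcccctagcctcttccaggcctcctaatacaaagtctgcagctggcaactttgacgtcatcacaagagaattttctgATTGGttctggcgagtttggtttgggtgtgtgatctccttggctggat
H2-Eb1: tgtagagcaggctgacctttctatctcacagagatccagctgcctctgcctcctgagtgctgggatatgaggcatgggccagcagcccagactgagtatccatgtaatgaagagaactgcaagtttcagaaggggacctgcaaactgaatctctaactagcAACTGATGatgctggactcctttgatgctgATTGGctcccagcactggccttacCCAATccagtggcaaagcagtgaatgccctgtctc
H2-K1: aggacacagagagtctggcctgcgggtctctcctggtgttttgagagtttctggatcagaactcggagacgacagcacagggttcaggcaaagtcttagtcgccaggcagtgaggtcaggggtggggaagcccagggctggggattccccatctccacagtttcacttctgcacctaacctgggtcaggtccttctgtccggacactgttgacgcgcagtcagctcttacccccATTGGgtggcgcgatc
B2m: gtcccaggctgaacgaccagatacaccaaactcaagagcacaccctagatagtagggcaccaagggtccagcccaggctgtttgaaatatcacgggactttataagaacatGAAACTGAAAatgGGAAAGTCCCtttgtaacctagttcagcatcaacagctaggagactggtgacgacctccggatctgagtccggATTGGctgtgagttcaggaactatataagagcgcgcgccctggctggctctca
The letters searched, on both strands, were ATTGG for the Y box, AACNNATG for the core of the X box, GAAA, any 2 bases and GAAA again for the interferon-stimulated response element (ISRE), and GGG, any 2 bases and TTTCC for the NF-kB element. In H2-Ob, which encodes the beta chain of the class II regulator H2-DO, an X box core began 85 bases and a Y box 57 bases before the start. H2-Eb1 had the same pair at 89 and 59 bases and another Y box on the other strand at 35, while H2-Aa had a Y box at 48 and H2-K1 a Y box at 16 bases. In B2m a Y box began at 53 bases, an ISRE at 139 and an NF-kB element on the other strand at 126. None of these matches overlapped another. RefSeq entries, of 300 bases each, were at hand for 35 of the 50 members. Of these 35, 25 held the Y box (37.4% of 32851 promoters of all genes), 4 the X box core (H2-DMb1, H2-DMb2, H2-Eb1 and H2-Ob; 8.86% of all), 5 the ISRE (B2m, Erap1, H2-T22, H2-T23 and Psme1; 3.44%) and 2 the NF-kB element (B2m and H2-Q4; 1.63%). The letters are short forms chosen after the sequences had been seen, and a match is a description of the sequence and not a binding site. Other forms of these elements were not searched. A promoter without a match, such as that of H2-K1 for the ISRE and NF-kB letters, may therefore still hold such an element.

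Some libraries stood apart in the H2 genes. H2-Ea, the class II alpha chain that the C57BL/6 strain is known not to express, had 952 and 917 counts (42.6 and 43.8 CPM) in the A+/wt/wt CD11b+ libraries of mice 331 and 380. It had 16 counts in A+/ki/ki mouse 335, 1 in A+/wt/wt mouse 367 and 0 in the other CD11b+ libraries of either sex. In cortex it had 58 counts in A+/ki/ki mouse 203, 55 and 23 in A+/wt/wt mice 329 and 257, 1 in mouse 222 and 0 in the other 5 libraries. Mice 331 and 380 also had 204 and 222 counts of H2-Q1, where the other female CD11b+ libraries had at most 5, H2-Q2 at 1.97 and 2.53 CPM and H2-Q10 at 13.2 and 15.4 CPM, against highest values of 0.322 and 2.42 CPM in the others. Their values of H2-Q5 (7.70 and 7.83 CPM), H2-Q6 (45.5 and 43.1), H2-Q7 (30.1 and 26), H2-DMa (68.6 and 81.8) and H2-DMb1 (31.3 and 39.1) were below those of all the other A+ libraries. H2-T24, at 88.7 and 88.3 CPM, was the highest of the table. Cortex libraries 203, 257 and 329 likewise had the highest H2-Q10 (0.518, 0.361 and 0.712 CPM) and the lowest H2-D1 (54.9, 59.4 and 60.1 CPM) of the A+ mice. The labels give these mice the same background as the others and the cause was not tested. The comparisons that include mice 331 and 380, or 203, 257 and 329, were also run without them, and mouse 335 was kept.

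**Figure D1:**
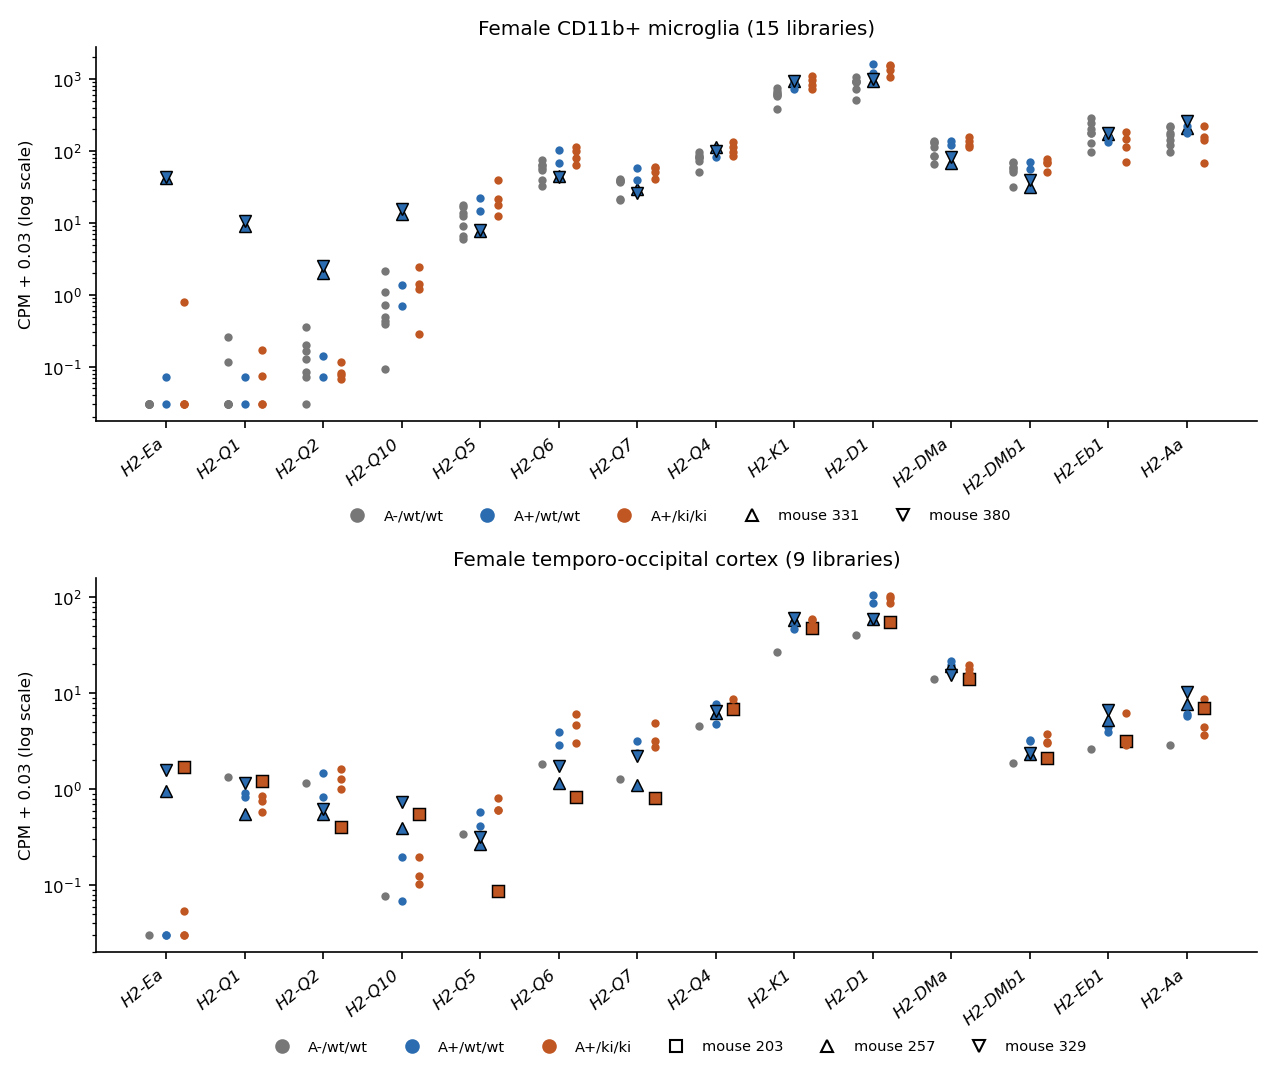
Levels of H2 genes in single libraries, on a log axis of CPM with a small offset so that 0 can be drawn, for CD11b+ microglia and cortex of females. Each point is 1 library, and the libraries with the most H2-Ea reads (331 and 380 among CD11b+, 203, 257 and 329 in cortex) have symbols of their own. They sit above the others in H2-Ea and H2-Q10, at 42.6 and 43.8 CPM of H2-Ea in CD11b+ cells.

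The first comparison asks how the genes differed in CD11b+ microglia of females with APP/PS1 transgenes from those without. Most class I heavy chains had higher means in A+/wt/wt than in A-/wt/wt mice, and the class II regulator H2-Ob was higher. H2-DMa, H2-DMb1 and H2-DMb2, which load or edit class II peptides, had log2 fold changes (log2FC) of -0.04, -0.18 and -0.14, and of 0.29, 0.17 and -0.31 without mice 331 and 380. H2-Ob was the 1 member of 44 tested that passed FDR 0.05 in edgeR, where 1.01% of all 17355 genes were called higher. Of the members, 30 had a log2FC above 0, against 44.6% of all genes, and their median was 0.20 against -0.03 for all genes. Without mice 331 and 380, 34 of 43 were above 0 (42.7% of all genes) with a median of 0.26. Libraries were also scaled to a separate list of 15 genes of microglia and other leukocytes, among them Ptprc, Spi1 and Csf1r, which shares some genes with the marker list and summed to 11160 to 28170 CPM in CD11b+ libraries. On this microglia scaling 32 of 44 members were above 0. In bulk samples, fewer cells of a type and less RNA per cell cannot be told apart.

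H2-Ob (ENSMUSG00000041538.16, chr17:34238903-34254414, plus strand, GRCm38) had 19.28 CPM in the lowest, 36.88 in the median and 41.75 in the highest of the 7 A-/wt/wt libraries. It had 53.95, 73.23, 56.22 and 80.91 CPM in A+/wt/wt mice 331, 367, 375 and 380, each above every A- library. The log2FC was 0.98 with an SE of 0.195 (adjusted p = 0.029, edgeR; 0.000226 with DESeq2). Leaving out any 1 of A- mice 224, 225 and 243 or A+ mice 367, 375 and 380 ended the call (adjusted p from 0.0509 to 0.144). Without mice 331 and 380 together the log2FC was 0.94 and the adjusted p 0.21.

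B2m (ENSMUSG00000060802.8, chr2:122147686-122153083, plus strand) was the other member whose groups did not overlap (2 of 44, against 2.02% of all genes that were higher without overlap). It had 1002, 1562 and 2233 CPM in the lowest, median and highest A- library and 2565, 3142, 2419 and 2456 CPM in the A+/wt/wt libraries. The log2FC was 0.72 (SE 0.204, adjusted p = 0.144; 0.00807 with DESeq2), and on the microglia scaling the adjusted p was 0.0369. H2-K1 ranged from 385.3 to 764.2 CPM with a median of 619.7 in A- mice and had 943.1, 922, 734.2 and 949.8 CPM in A+/wt/wt mice, so that 3 of 4 were above the A- range. Its log2FC was 0.56 (SE 0.173, adjusted p = 0.182; 0.0239 with DESeq2). H2-D1 overlapped more, with 508.7, 924.1 and 1077 CPM in the A- mice and 952, 1622, 1223 and 1013 CPM in the A+/wt/wt mice (log2FC 0.49, adjusted p = 0.44).

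Across the class I heavy chains, 13 of 15 tested were above 0 with a median log2FC of 0.29, and 5 had an unadjusted p under 0.05. These counts were 13 of 14 and 3 without mice 331 and 380, with a median of 0.43. H2-T24 had a log2FC of 0.72 (adjusted p = 0.21), and its highest values, 88.7 and 88.3 CPM, were in the libraries of mice 331 and 380. Without these it was 0.37 (adjusted p = 0.887). H2-Q10, a secreted heavy chain of the liver, had the largest log2FC, 3.34 (SE 0.812, adjusted p = 0.0765), which rested on 13.2 and 15.4 CPM in those 2 libraries, beside 0.681 and 1.32 CPM in the others of the group, and was 0.41 without them (adjusted p = 0.966). Of 7 class I assembly genes, 5 were above 0. Among them the peptidase Erap1, which trims peptides in the endoplasmic reticulum, had a log2FC of 0.37 (adjusted p = 0.386) and Calr 0.40 (adjusted p = 0.405), whereas Tap2 and Tapbp were at -0.31 and -0.10. The 5 immunoproteasome genes lay between -0.19 and 0.19.

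Cd74 ranged from 289.6 to 796.1 CPM with a median of 520 in A- mice and had 733.9, 818.1, 629.7 and 979.8 CPM in A+/wt/wt mice (log2FC 0.57, SE 0.232, adjusted p = 0.384). The groups overlapped, as they did in H2-Aa (97.11 to 222.1 CPM against 176.6 to 261.7, log2FC 0.43, adjusted p = 0.536) and H2-Ab1 (91.5 to 245.2 against 172.7 to 232.3, log2FC 0.22, adjusted p = 0.882). H2-Eb1 had a log2FC of -0.21. The transactivator Nlrc5 ranged from 8.708 to 29.28 CPM in A- and from 26.04 to 34.89 CPM in A+/wt/wt mice (log2FC 0.64, SE 0.305, adjusted p = 0.517). Ciita was close to even at 0.07 (adjusted p = 0.995). The costimulatory genes had log2FC of 0.18 (Cd86), -0.16 (Cd80) and -0.34 (Cd40), with adjusted p from 0.761 to 0.942.

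In total 10 of 44 members had an unadjusted p under 0.05, each with a log2FC above 0 (4.86% of all genes). This was 6 of 43 without mice 331 and 380 (3.96% of all genes). DESeq2 called 4 members higher, B2m, H2-K1, H2-Ob and H2-Q10 (2.14% of all genes). The H2-Q10 call rests on mice 331 and 380, and DESeq2 was not run without them. In all libraries of this comparison the 15 microglia markers had a median log2FC of -0.02, with sums of 16320 to 30760 CPM in A- and 20200 to 32080 CPM in A+/wt/wt mice. Of 12 genes of activated microglia, 9 were called higher, with sums of 3652 to 7012 against 10880 to 14910 CPM. Border macrophages, which are rich in class II, had 3 of 10 markers called lower and sums of 796.7 to 1834 against 646 to 773.1 CPM. The 8 B cell markers, with none called, summed to 176.3 to 337.4 and 294.3 to 510.1 CPM, and Pax5 was under 1 CPM throughout. Of the 10 markers of dendritic cells, Itgax was called higher and Cd209a and Clec10a lower, and Xcr1 was under 1 CPM in every library. The part of these cells in the result was not tested.

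**Figure D2:**
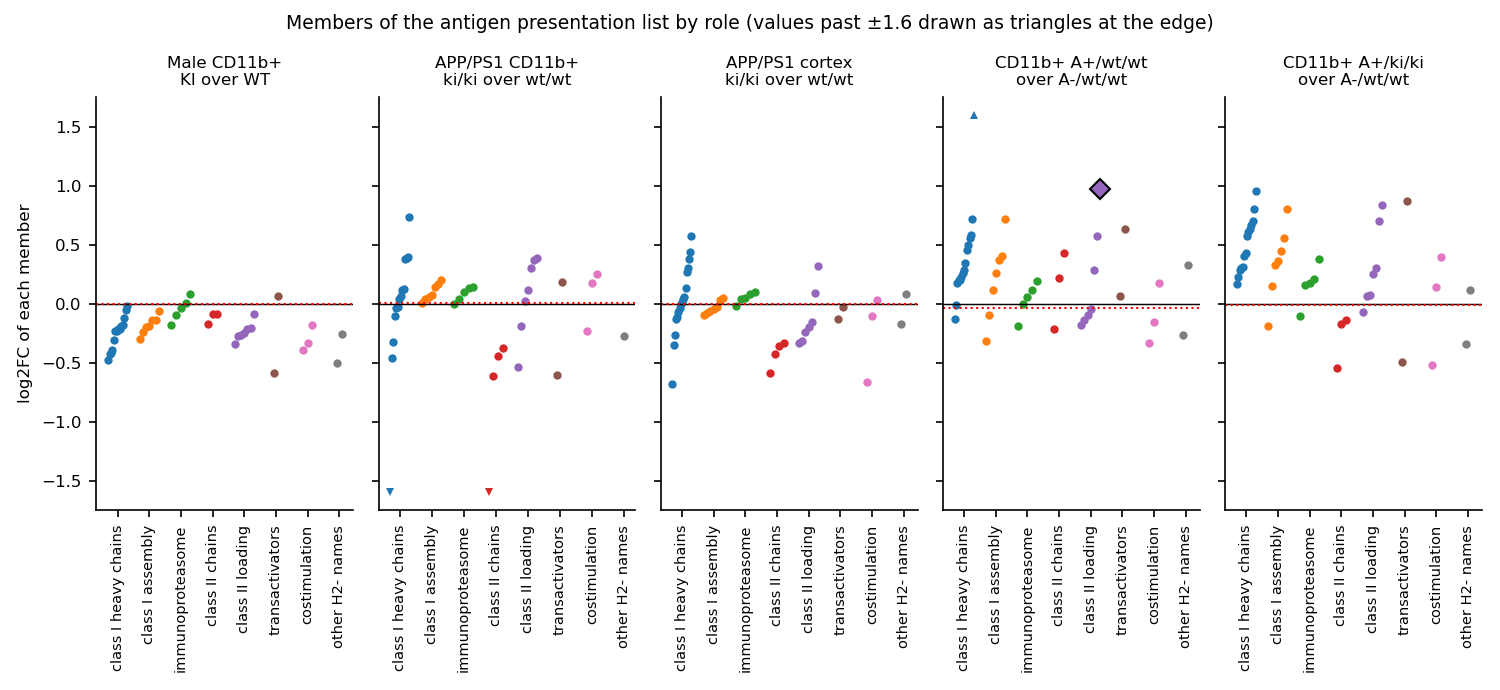
Log2FC of each tested member by role in 5 comparisons, with points past the axis drawn as triangles at its edge, the dotted red line at the median of all genes tested and a diamond for the 1 member called at FDR 0.05. Heavy chains lie mostly above 0 in both A+ groups (13 of 15 and 14 of 14), and 40 of 43 members lie below 0 in male KI mice with TMM scaling, but 7 of 43 on the microglia scaling.

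A+/ki/ki mice were compared with the same 7 A-/wt/wt controls, so that comparison is not independent of the first, and its values are given beside those above. Heavy chains were above 0 in 14 of 14 tested with a median log2FC of 0.50, and in 12 of 14 with a median of 0.26 on the microglia scaling, under which the median of all genes was -0.28. The 3 tested class II chains were below 0 on both scalings (medians -0.17 and -0.35). Of all members 34 of 43 were above 0 (48.4% of all genes), and 24 on the microglia scaling. No member was called by edgeR at FDR 0.05, where 1.35% of 17446 genes were called higher. Of the members, 15 of 43 had an unadjusted p under 0.05, all with a log2FC above 0 (9.06% of all genes), and DESeq2 called 5 higher, B2m, Erap1, H2-D1, H2-Ob and H2-K1 (3.45% of all genes).

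B2m had 2788, 2292, 3189 and 3075 CPM in A+/ki/ki mice 244, 335, 394 and 405, each above the A- maximum of 2233 (log2FC 0.80, SE 0.212, adjusted p = 0.0876; 0.00232 with DESeq2). Calr was the other member without overlap, with 406.9 to 756.9 CPM in A- and 895.6, 802.3, 876.5 and 975.7 CPM in A+/ki/ki mice (2 of 43, against 2.5% of all genes). H2-Ob had 61, 38.22, 77.08 and 65.78 CPM, 3 of them above the A- maximum of 41.75 (log2FC 0.84, SE 0.216, adjusted p = 0.084). H2-D1 had 1327, 1064, 1547 and 1527 CPM (log2FC 0.66, SE 0.2, adjusted p = 0.139) and H2-K1 824.2, 721.2, 1096 and 969.3 CPM (log2FC 0.57, adjusted p = 0.163), again with mouse 335 lowest and inside the A- range. In Erap1 mouse 335 had 56.97 CPM and the other A+/ki/ki mice 88.47 to 90.33, where A- mice ranged from 44.18 to 68.29 CPM (log2FC 0.56, adjusted p = 0.101). H2-Q6, a non-classical heavy chain, had 63.8 to 113.2 CPM against 32.82 to 74.45 (log2FC 0.70, adjusted p = 0.158).

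Mouse 335, with 19.4% of counts from mitochondrial genes and the lowest microglia sum of its group (22650 CPM), decided the count. Without it, B2m, Erap1, H2-Ob, H2-D1 and H2-Q6 were called higher, 5 of 43, beside 706 genes of the whole table called higher (236 with it). Without A- mouse 223, H2-Ob alone was called. In the fit of all 3 female groups together, B2m and H2-Ob were called (adjusted p = 0.0361 and 0.0424).

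Values of Cd74 and the class II chains reached into or below the A- range. Of the 7 class II loading genes, which include Cd74 and H2-Ob, 6 were above 0 (median log2FC 0.25). On the microglia scaling 4 of these 7 were above 0 (median 0.02). Cd74 had 772.1, 570, 314.9 and 607.3 CPM in A+/ki/ki mice, which covers most of the A- range (log2FC 0.08, SE 0.276, adjusted p = 0.904; -0.11 on the microglia scaling). H2-Aa, at 220.3, 158.3, 68.68 and 143.1 CPM, and H2-Ab1, at 215, 155.9, 85.29 and 158.3 CPM, reached below the lowest A- value in mouse 394 (log2FC -0.14 and -0.17, adjusted p = 0.828 and 0.764). Nlrc5 had 39.5, 18.85, 35.87 and 46.61 CPM (log2FC 0.87, adjusted p = 0.258), and Ciita 7.899, 2.753, 2.955 and 4.8 CPM (log2FC -0.49, adjusted p = 0.544). The log2FC of Cd86, Cd80 and Cd40 were 0.40, 0.14 and -0.52 (adjusted p from 0.332 to 0.715). Beside these values, the microglia markers had a median log2FC of 0.20 (14 of 15 above 0, sums of 22650 to 34440 CPM) and neuron markers one of -0.86 (sums of 173.4 to 1965 CPM against 359 to 4174). Border macrophage markers were below 0 in 10 of 10 (median -0.77), with Cbr2 called lower and sums of 689.3 to 969.7 against 796.7 to 1834 CPM. Of the genes of activated microglia, 11 of 12 were called higher (sums of 11560 to 16370 against 3652 to 7012 CPM). The 8 neutrophil markers were above 0 (median 1.44), none called, with sums of 40.2 to 1805 against 85.21 to 668.2 CPM. The part of these cells in the result was not tested.

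**Figure D3:**
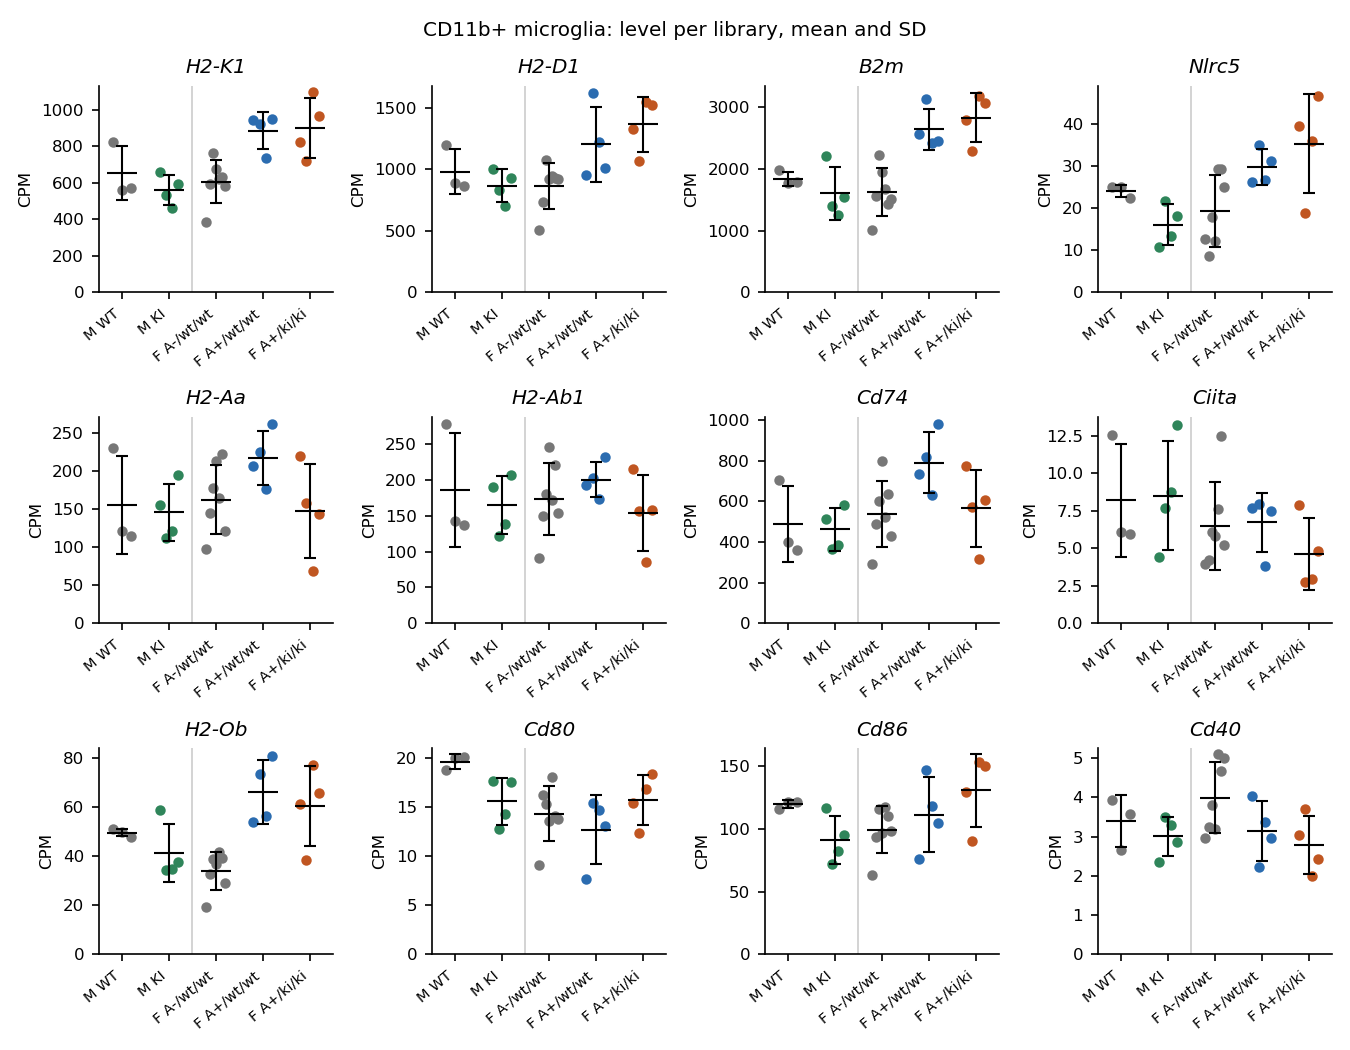
CPM of 11 members and of H2-Ob per CD11b+ library in 5 groups (A-/wt/wt, A+/wt/wt and A+/ki/ki females, WT and KI males), with the mean and SD of each group. Females and males were scaled as separate tables and are divided by a line. B2m is 1002 to 2233 CPM in A-/wt/wt mice and 2292 to 3189 CPM over both A+ groups, whereas Cd74 of the groups overlaps.

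The knock-in was then compared with the wild type among APP/PS1 females. In CD11b+ microglia, B2m, H2-K1 and H2-D1 had log2FC between -0.04 and 0.13, and the class II chains and Cd74 had lower means that did not pass the test. None of 43 members was called, and no gene of 17039 was (0%). The DESeq2 test called 0 members and 7 genes of the table (0.0411%). By unadjusted p under 0.05, 2 members were lower, H2-Ea and H2-Q10 (1.59% of all genes). Both rest on mice 331 and 380, and H2-Ea met the count minimum through these and mouse 335 (16 counts). Without mice 331 and 380 no member of 42 had an unadjusted p under 0.05. In total 27 members were above 0 (50.7% of all genes) with a median log2FC of 0.05, while on the microglia scaling 9 were above 0 with a median of -0.14, where the median of all genes was -0.19.

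Cd74 had 733.9, 818.1, 629.7 and 979.8 CPM in A+/wt/wt and 772.1, 570, 314.9 and 607.3 CPM in A+/ki/ki mice. The log2FC was -0.54 (SE 0.267, unadjusted p = 0.0764, adjusted p = 0.853), with mice 335, 394 and 405 below the A+/wt/wt range. H2-Aa likewise had mouse 244 highest and mouse 394 lowest of the A+/ki/ki group, at 206.6, 225.2, 176.6 and 261.7 CPM against 220.3, 158.3, 68.68 and 143.1 (log2FC -0.62, SE 0.313, adjusted p = 0.853). H2-Ab1 had a log2FC of -0.44 (SE 0.252) and H2-Eb1 one of -0.37, and on the microglia scaling H2-Aa, H2-Ab1 and H2-Eb1 were at -0.77, -0.61 and -0.53. Without mice 331 and 380 the log2FC of Cd74, H2-Aa, H2-Ab1 and H2-Eb1 were -0.38, -0.47, -0.32 and -0.21. Ciita had 7.695, 7.957, 3.799 and 7.451 CPM against 7.899, 2.753, 2.955 and 4.8 (log2FC -0.61, SE 0.381, adjusted p = 0.853), so that A+/ki/ki mice 244 and 405 were within the A+/wt/wt range.

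In the main class I genes and their transactivator the log2FC was smaller than its SE. It was 0.04 for B2m (SE 0.167), -0.04 for H2-K1 (SE 0.162), 0.13 for H2-D1 (SE 0.199) and 0.18 for Nlrc5 (SE 0.239), with adjusted p from 0.857 to 0.946. H2-T24 had 88.67, 62.42, 53.41 and 88.31 CPM in A+/wt/wt and 60.56, 38.69, 63.63 and 59.59 CPM in A+/ki/ki mice (log2FC -0.46, SE 0.214, adjusted p = 0.853; -0.09 without mice 331 and 380). Tapbp, the peptide editor tapasin, was the 1 member whose groups did not overlap in the scaling of this fit (1.26% of all genes were higher without overlap). It had a mean of 210.3 ± 16.3 and 251.6 ± 23.5 CPM (SD, n = 4 each) and a log2FC of 0.20 (SE 0.099, adjusted p = 0.853). Cd80, Cd86 and Cd40 were at 0.25, 0.17 and -0.23 (adjusted p from 0.853 to 0.854). A p that misses the threshold does not show that the values did not differ. In the same libraries all 15 microglia markers had a log2FC above 0 (median 0.22), neuron markers had a median of -0.82, border macrophage markers one of 0.21 and dendritic cell markers one of -0.32, and 8 neutrophil markers had a median of 2.47 with sums of 46.66 to 139.7 CPM in A+/wt/wt and 40.2 to 1805 CPM in A+/ki/ki mice. Their part in these values was not tested.

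In male mice without APP/PS1 transgenes, 40 of 43 members had a log2FC below 0 in KI over WT mice on the standard scaling (50.2% of all genes), with a median of -0.21, but on the microglia scaling 36 of 43 were above 0 with a median of 0.16, where the median of all genes was 0.38. The microglia scaling takes the mean of its 15 genes as equal between libraries. On the standard scaling all 15 of them were below 0 in KI mice (median log2FC -0.35), and 2 were called lower. No member was called lower by edgeR on that scaling, where 5.26% of 16373 genes were called lower and 11.1% higher. By unadjusted p under 0.05, 8 of 43 members were lower (14.1% of all genes), and DESeq2 called H2-T24 lower (adjusted p = 0.0469; 7.95% of all genes were called lower). The groups of 6 members did not overlap, H2-T24, Tap1, Nlrc5, Erap1, Cd80 and H2-T10, each lower in KI mice (15.4% of all genes).

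H2-T24 had 61.37, 57.83 and 58.02 CPM in WT mice 94, 101 and 102 and 43.08, 53.39, 50.15 and 43.86 CPM in KI mice 84, 104, 136 and 139 (log2FC -0.31, SE 0.105, adjusted p = 0.072; 0.07 on the microglia scaling). Tap1, a subunit of the peptide transporter, had 59.87, 66 and 64.27 CPM against 47.9, 56.2, 56.1 and 46.28 (log2FC -0.30, SE 0.105, adjusted p = 0.0842; 0.09 on the microglia scaling). Nlrc5 had 22.35, 24.88 and 24.93 CPM against 18.17, 10.84, 21.68 and 13.32 (log2FC -0.59, SE 0.213, adjusted p = 0.0898). In these 3 genes every KI mouse was below every WT mouse, by a margin of under 1 CPM in Nlrc5. H2-M3, a heavy chain that presents formylated peptides, and Cd86 overlapped between groups, at 31.89 to 45 against 21.5 to 35.21 CPM (log2FC -0.47, adjusted p = 0.104) and 115.9 to 121.5 against 71.7 to 116.3 CPM (log2FC -0.39, adjusted p = 0.105). Cd80 had 18.77 to 20.12 CPM in WT and 12.81 to 17.67 CPM in KI mice (log2FC -0.33, adjusted p = 0.138; 0.03 on the microglia scaling), and Cd40 a log2FC of -0.18 (adjusted p = 0.639).

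The most abundant members overlapped. B2m had 1783, 1977 and 1765 CPM in WT and 1553, 2219, 1392 and 1249 CPM in KI mice, and KI mouse 104 was the highest of all 7 (log2FC -0.20, SE 0.206, adjusted p = 0.531; 0.13 on the microglia scaling). H2-K1 and H2-D1 had log2FC of -0.22 and -0.18 (adjusted p = 0.422 and 0.502; 0.14 and 0.18 on the microglia scaling). Cd74 had 362.4, 704.6 and 400.1 CPM against 581.6, 512.6, 364.3 and 385.8 (log2FC -0.08, SE 0.251, adjusted p = 0.842), and WT mouse 101 was by far the highest. H2-Aa, with 114.2, 230.4 and 121.8 CPM in WT mice and 194.4, 155.3, 111.6 and 122 CPM in KI mice, showed the same mouse on top (log2FC -0.09, adjusted p = 0.84), and H2-Ab1 and Ciita were at -0.17 and 0.07. Without mouse 101 the log2FC of Cd74 and H2-Aa were 0.32 and 0.35.

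KI mouse 104 decided the count of calls: without it 14 of 43 members were called lower, B2m, Ifi30, Erap1, Cd86, Tapbp, H2-Oa, H2-DMa, H2-DMb2, H2-DMb1, Psmb9, Tap1, H2-Ob, H2-T24 and H2-M3, beside 2153 of 16242 genes of the whole table. Without KI mouse 136, Nlrc5 alone was called. The microglia markers of the same libraries were below 0 in 15 of 15 (median log2FC -0.33, 1 called lower), with sums of 36180 to 37110 CPM in WT mice and of 29090, 40140, 21970 and 24870 CPM in KI mice 84, 104, 136 and 139. Neuron markers were called higher in 15 of 15 (median 2.07, sums of 196.1 to 284.6 against 632 to 1439 CPM), astrocyte markers in 10 of 10 (median 1.12) and oligodendrocyte markers in 7 of 10 (median 1.09). Mice 104 and 84 were the highest KI mice in B2m as well as in the microglia sum. The part of these cells in the result was not tested beyond the microglia scaling given above.

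**Figure D4:**
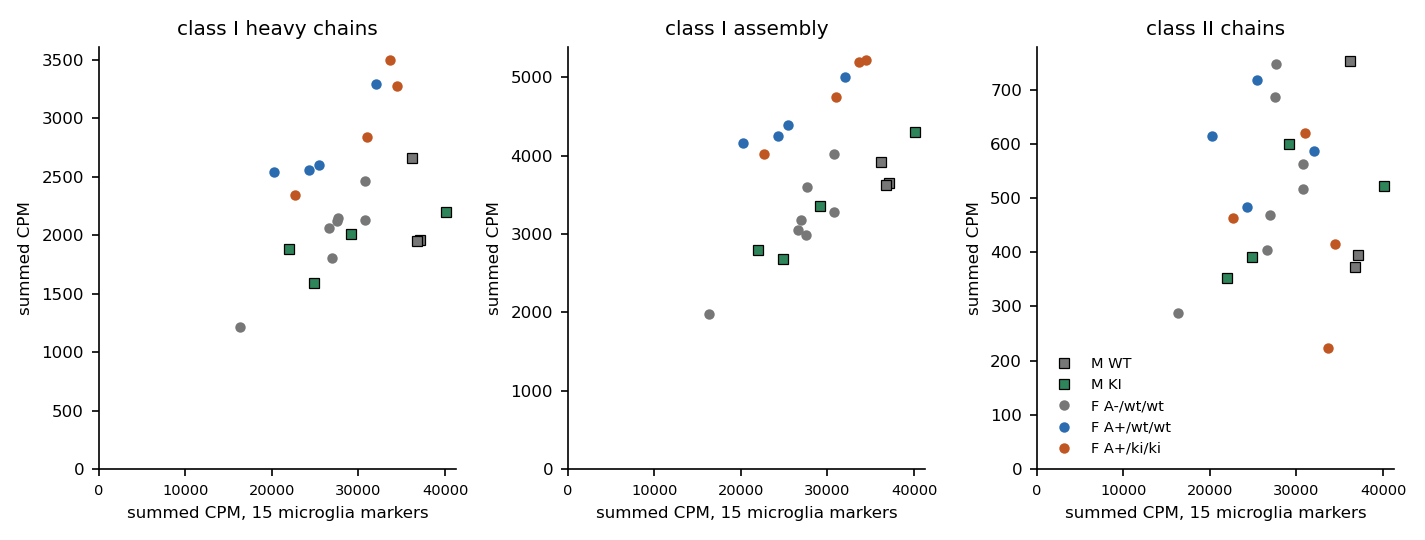
Summed CPM of class I heavy chains, class I assembly genes and class II chains (vertical axes) against the summed CPM of 15 microglia markers (horizontal axis), 1 point per CD11b+ library, coloured by group. Class I assembly sums are 4017 to 5225 CPM in A+ and 1978 to 4020 CPM in A- females, whereas class II sums of all groups lie between 224.1 and 752 CPM.

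Whether the knock-in effect differed between the males without and the females with APP/PS1 transgenes was tested as the difference of both log2FC, and sex, batch tag and transgene differ together in it. No member of 45 passed (0% of 17619 genes were called), and DESeq2 called 0 members and 6.62% of all genes. By unadjusted p under 0.05, 2 members were lower, Tap1 (-0.43, SE 0.19, adjusted p = 0.175) and Nlrc5 (-0.74, SE 0.345, adjusted p = 0.188), where 9.07% of all genes were. H2-M3, Cd80 and Cd86 were at -0.55, -0.55 and -0.53, and H2-Q10 at 2.39 (adjusted p from 0.214 to 0.244), which was -0.63 without mice 331 and 380. Ciita was at 0.69, H2-Aa at 0.55, Cd74 at 0.48, H2-Eb1 at 0.32 and H2-Ab1 at 0.30 (adjusted p from 0.431 to 0.645). Of the 7 class II loading genes, which include Cd74, the other 6 were below 0, H2-Oa lowest at -0.61 (median of the 7 -0.33), whereas on the microglia scaling 4 were above 0 (median 0.17). Without mice 331 and 380 H2-Aa, Cd74, H2-Eb1 and H2-Ab1 were at 0.36, 0.27, 0.10 and 0.12. The class I values were small, with B2m at -0.21, H2-K1 at -0.15 and H2-D1 at -0.28 (0.29, 0.40 and 0.24 on the microglia scaling). Cd40 was at 0.07, and at -0.18 without mice 331 and 380. Of the members 31 were below 0 (49% of all genes), whereas on the microglia scaling 34 were above 0 with a median of 0.34, where the median of all genes was 0.55. Without A+/ki/ki mouse 335, Nlrc5, Erap1, Cd86, Tap1 and H2-M3 were called lower, 5 members beside 2725 genes of the whole table.

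In temporo-occipital cortex of APP/PS1 females no member of 47 was called between A+/ki/ki and A+/wt/wt mice, nor was a gene of 18640 (0%). DESeq2 called 0 members and 11 genes (0.059%). One member, Ifi30, had an unadjusted p under 0.05 (1.42% of all genes were lower by that rule), with 4.203, 5.376, 5.28 and 3.672 CPM in A+/wt/wt mice 236, 257, 259 and 329 and 3.608, 3.538, 3.909 and 3.556 CPM in A+/ki/ki mice 184, 203, 216 and 222 (log2FC -0.34, SE 0.151, adjusted p = 1). The groups overlapped in 1 A+/wt/wt mouse, and no member was free of overlap (1.85% of all genes were). The 47 log2FC had a median of -0.04, with 20 above 0 (49.3% of all genes).

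B2m had 170.4, 182.2, 161.3 and 169.6 CPM in A+/wt/wt and 189, 153.8, 154.7 and 156.6 CPM in A+/ki/ki mice (log2FC -0.06, SE 0.077). Apart from mouse 184, the A+/ki/ki mice were below the A+/wt/wt mice. H2-K1, with means of 55.87 ± 6.07 and 53.3 ± 6.03 CPM, had a log2FC of -0.07 (SE 0.096) and H2-D1, with 78.4 ± 22.7 and 85.87 ± 21.8 CPM, one of 0.13 (SE 0.207; -0.01 without mice 203, 257 and 329). Cd74 had 25.3, 39.92, 22.92 and 41.59 CPM against 35.75, 31.16, 19.29 and 18.14 (log2FC -0.32, SE 0.235), and H2-Eb1 was at -0.43, H2-Aa at -0.36 and H2-Ab1 at -0.33 (-0.46, -0.41 and -0.38 on the microglia scaling). The highest A+/wt/wt values of Cd74 were in the libraries with H2-Ea reads, 329 and 257, and without these and mouse 203 the log2FC of Cd74 was 0.01, that of H2-Eb1 -0.07, that of H2-Aa -0.11 and that of H2-Ab1 -0.06. H2-Q4 was at 0.27 and H2-T10 at -0.35 (0.32 and -0.12 without the 3 mice). Cd40 (log2FC -0.66), Cd80 (-0.10), Ciita (-0.03) and Nlrc5 (-0.13) had means of 2 CPM or less, and Cd86 was at 0.03. Each of these members had an adjusted p of 1. Microglia markers had a median log2FC of 0.01 (sums of 1048 to 1211 and 1098 to 1235 CPM).

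The single A-/wt/wt cortex library has no replicate and no test was run on it. It held 79.26 CPM of B2m where the A+ libraries of both genotypes held 153.8 to 189 CPM, 27.13 CPM of H2-K1 (47.29 to 61.18) and 8.09 CPM of Cd74 (18.14 to 41.59). Calr, at 370.4 CPM, was within the range of the A+ libraries (357.7 to 462.5). The microglia markers summed to 555 CPM in this library and to 1048 to 1235 CPM in the A+ libraries, and their part in the difference was not tested.

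**Figure D5:**
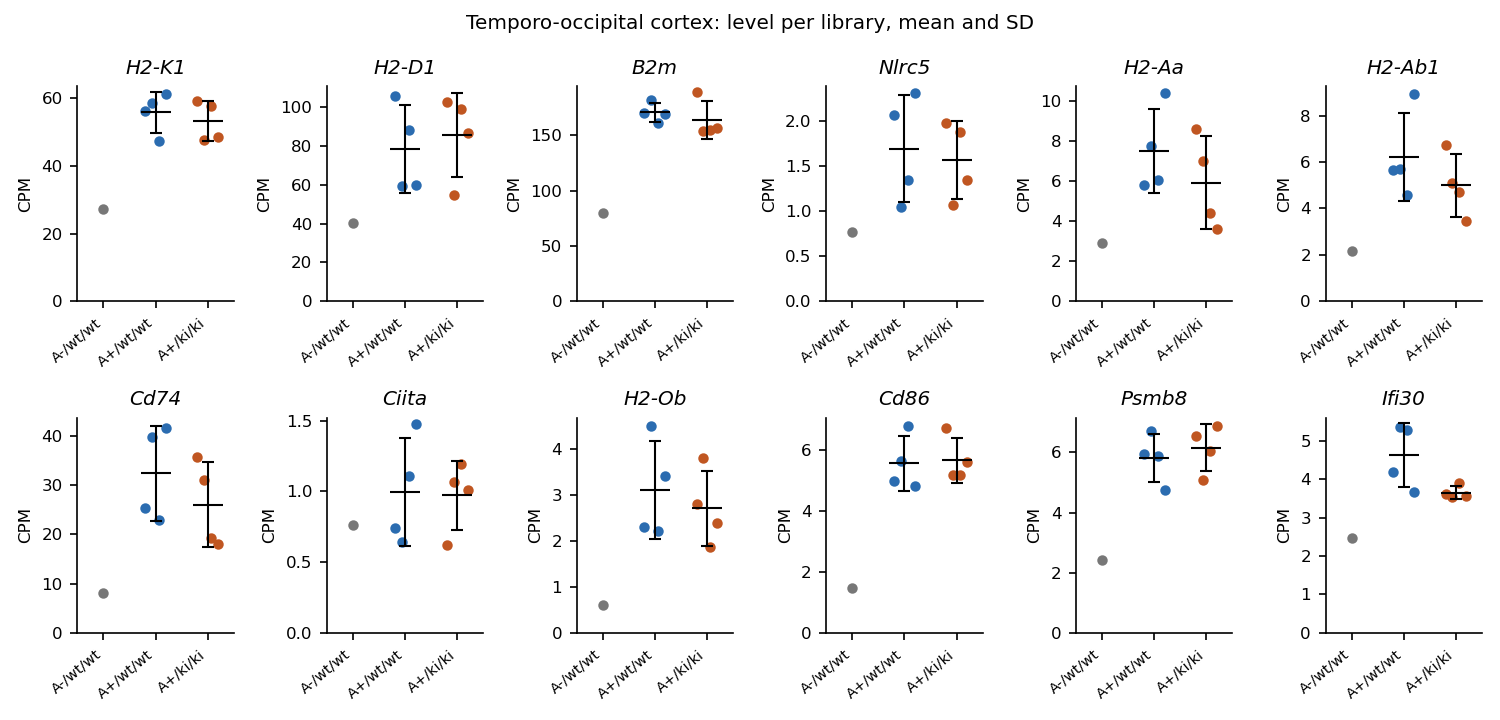
CPM of members per cortex library in A-/wt/wt (n = 1), A+/wt/wt (n = 4) and A+/ki/ki (n = 4) females, with the mean and SD of the A+ groups. The A+ groups overlap in each member drawn, and the A-/wt/wt library lies at 79.26 CPM of B2m and 8.09 CPM of Cd74, below every A+ library.

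The other genes of the pathway, 40 that are not members, were taken as 3 lists of signalling and transcription factors (17 genes), of further processing and loading proteins (14) and of MHC-like and surface molecules (9). In A+/wt/wt against A-/wt/wt CD11b+ microglia none of the 17 regulators was called, 2 of 14 processing genes were called higher and 2 of 9 surface genes were (1.01% of all genes). The endosomal proteases Ctsb and Ctsl, which digest proteins into peptides, had 1333 to 2671 against 3245 to 5293 CPM (log2FC 1.02, adjusted p = 0.0348) and 311.2 to 647.4 against 648.2 to 1337 CPM (log2FC 1.08, adjusted p = 0.0365). The groups of Ctsb did not overlap, while those of Ctsl came within 1 CPM of each other and overlapped in the scaling of the fit. Cd274, the inhibitory ligand PD-L1, had 8.89 to 20.81 against 25.05 to 37.27 CPM (log2FC 1.07, adjusted p = 0.0309), and Mr1, which presents vitamin B metabolites, had a log2FC of 0.68 (adjusted p = 0.0432). In A+/ki/ki against the same controls, Ctsb, Ctsl, Cd274 and Mr1 were called higher (1.35% of all genes), with log2FC of 1.16, 1.06, 1.48 and 0.83 (adjusted p = 0.0296, 0.0165, 0.0202 and 0.0339). On the microglia scaling Ctsb and Ctsl kept the call in both comparisons, Cd274 had an adjusted p of 0.0404 and 0.0535, and Mr1 0.375 and 0.388. No gene of the 3 lists was called between A+/ki/ki and A+/wt/wt mice in CD11b+ cells or cortex.

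In male KI against WT mice on the standard scaling, 3 of 9 surface genes were called lower (5.26% of all genes). No gene of the other lists was called in either direction on that scaling (11.1% of all genes were called higher). Icosl, a costimulatory ligand, had 112.4 to 126.5 CPM in WT and 71.8 to 90.45 CPM in KI mice (log2FC -0.52, adjusted p = 0.0107). Cd274 had 16.97 to 19.94 against 10.97 to 13.2 CPM (log2FC -0.57, adjusted p = 0.0182) and Cd83, a surface protein that holds class II and Cd86 on the membrane, 124.2 to 194.1 against 58.61 to 117.2 CPM (log2FC -0.85, adjusted p = 0.0485). On the microglia scaling their log2FC were -0.15, -0.19 and -0.53 and the calls were lost (adjusted p = 0.529, 0.504 and 0.0979). The same scaling called 3 of 14 processing genes higher, where it called 2196 of 16373 genes of the whole table higher. Their list had a median log2FC of 0.27 on it, and all genes had 0.38. Of 19 interferon response genes, which share control by interferon with many members, 4 were called higher in A+/wt/wt over A-/wt/wt mice, Ifit2 (log2FC 1.42), Ifi27l2a (1.69), Oasl2 (1.09) and Ifit3 (0.81), with adjusted p from 0.00171 to 0.0469 (1.01% of all genes). In A+/ki/ki mice over the same controls Ifi27l2a (1.47) and Ifit2 (1.25) were called higher (adjusted p = 0.0296 and 0.0286, 1.35% of all genes). In male KI mice Ifit2 was called lower (log2FC -0.57, adjusted p = 0.0266), 1 of 19 genes, where 5.26% of all genes were. Of these 19 genes, 10 were above 0 in the males, with a median log2FC of 0.02.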

How the data were processed

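RNA-seq of 31 libraries, 1 mouse each, was analysed from 3 count tables. The authors trimmed the reads with Trimmomatic 0.39, aligned them with STAR 2.7.9a to GRCm38 (Gencode annotation), counted uniquely mapped reads per gene irrespective of strand with featureCounts 2.12.0 and deposited these counts without scaling; versions are from the submitters' processing notes. Columns were matched to samples by tissue, genotype, sex and mouse number. Genes that reached 10 counts in 3 or more of the fitted libraries were tested with the quasi-likelihood test of edgeR 4.0.16 (R 4.3.3, TMM scaling, two-sided, Benjamini-Hochberg FDR 0.05 over all genes tested), each of 6 comparisons on its own libraries. The SE was taken from the log2FC and the F statistic. DESeq2 1.42.0, its size factors, scaling to 15 microglia and leukocyte genes (not the same list as the 15 microglia markers, but with some genes in common), no filter, a fit of all groups and leaving out libraries were alternatives. CPM in the text are scaled over a whole table.

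Members, roles and lists were chosen with earlier results of these data known. Named were Cd74, H2-Aa, H2-Ab1, H2-K1, H2-D1, B2m, Ciita, Nlrc5, Cd80, Cd86 and Cd40, called members and, where fewer than 5 were called, the 5 of smallest p. Other named members were chosen after their values were seen. Further lists held markers of microglia, activated microglia, neurons, astrocytes, oligodendrocytes, endothelium, border macrophages, dendritic cells, B cells, T and NK cells, neutrophils, monocytes and interferon response. On simulated data with 200 genes changed by a log2FC of 1, edgeR recovered 81% (male KI), 21% (A+/ki/ki over A+/wt/wt), 98.5% (cortex), 52% and 37.5% (A+/wt/wt and A+/ki/ki over A-/wt/wt) and 10.5% (difference of effects). DESeq2 recovered 178 of the 200 in males with 34 false calls, where edgeR recovered 162 with 11. It recovered 131 with 61 false calls for A+/ki/ki over A+/wt/wt (edgeR 42 with 4). Over A-/wt/wt it recovered 160 with 46 (A+/wt/wt) and 134 with 60 (A+/ki/ki), and edgeR 104 with 6 and 75 with 4. In cortex it recovered 198 with 34 (edgeR 197 with 15), and for the difference of effects 82 with 34 (edgeR 21 with 0). The changed genes were drawn from those with a mean above 5 CPM. The shares therefore do not cover members below it, such as Cd40, Cd80, Ciita and Nlrc5 in cortex, or smaller changes.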

Additional observations from a re-analysis of the deposited data

Results flagged for a closer look

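In 97 groups of 4 to 7 libraries, each a member in a group, the highest or lowest library lay farther from the others than Dixon's limit in 7, where chance gives about 1 in 20. In cortex, A+/ki/ki mouse 184 had 189 CPM of B2m (153.8 to 156.6 in the other 3) and 6.158 CPM of H2-Eb1 (2.835 to 3.193). In CD11b+ microglia, A+/ki/ki mouse 335 had 56.97 CPM of Erap1 (88.47 to 90.33 in the others), 38.69 CPM of H2-T24 (59.59 to 63.63) and 0.7596 CPM of H2-Ea (0 in the others). A+/wt/wt mouse 375 had 3.799 CPM of Ciita (7.451 to 7.957) and 734.2 CPM of H2-K1 (922 to 949.8).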

How the results depend on the processing

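Counts of members called depended on the tool, the scaling and single mice, and members under the count minimum of a fit had no test. In male KI over WT mice 0 members were called lower, 1 without the low-count filter (Nlrc5), 1 with DESeq2 (H2-T24) and 0 to 14 when 1 library was left out, 14 without KI mouse 104. Of all genes, 861 of 16373 were called lower, and 603 of 30652 without the filter. With DESeq2 these were 1302 of 16373, and 2153 of 16242 without mouse 104 in edgeR. In A+/wt/wt over A-/wt/wt mice 1 was called higher, 4 without the filter (H2-Ob, H2-Ea, H2-Q1 and H2-Q10), 4 with DESeq2, 2 on the microglia scaling, 0 without mice 331 and 380 together and 0 to 1 with 1 library left out. H2-Ea, H2-Q1 and H2-Q10 rest on the reads of mice 331 and 380. Among all genes, 175 of 17355 were called higher, 185 of 32667 without the filter and 371 of 17355 with DESeq2. They were 136 of 17355 on the microglia scaling and 69 of 17021 without mice 331 and 380 together. In A+/ki/ki over A-/wt/wt mice 0 were called higher, 5 with DESeq2, 2 in the fit of all groups and 0 to 5 with 1 library left out, 5 without mouse 335. Genes called higher over the whole table were 236 of 17446, and 602 of 17446 with DESeq2. The fit of all groups called 395 of 17850, and that without mouse 335 called 706 of 17287. For the difference of effects, 0 were called lower and 0 to 5 with 1 library left out, 5 without mouse 335. That last fit called 2725 of 17495 genes lower. Size factors of DESeq2 changed no count. Leaving out the libraries with the most H2-Ea reads was chosen after seeing the data. No paired analysis was possible because the groups compared share no mouse numbers.

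On the microglia scaling these log2FC changed sign, and the cause was not tested. In males Cd74 was 0.27, H2-Aa 0.26, H2-Ab1 0.17, H2-K1 0.14, H2-D1 0.18, B2m 0.13, Cd80 0.03, Cd40 0.23, H2-T24 0.07 and Tap1 0.09. In A+/ki/ki over A+/wt/wt CD11b+ cells H2-D1 was -0.06, B2m -0.16, Nlrc5 -0.05 and Cd86 -0.02, and H2-K1 was 0.02 in the fit of all groups. In A+/ki/ki over A-/wt/wt mice Cd74 and Cd80 were both -0.11. In the difference of effects H2-K1 was 0.40, H2-D1 0.24, B2m 0.29 and Tap1 0.12.

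Without mice 331 and 380, H2-K1 was 0.10, H2-D1 -0.08, Cd86 -0.05 and H2-Q10 0.36 in A+/ki/ki over A+/wt/wt mice, Ciita -0.13 and Cd80 0.08 in A+/wt/wt over A-/wt/wt mice, and Cd40 -0.18 and H2-Q10 -0.63 in the difference of effects. Without cortex mice 203, 257 and 329, Cd74 was 0.01, H2-K1 0.09, H2-D1 -0.01, B2m 0.01, Ciita 0.06, Cd80 0.01 and Cd86 -0.01.

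Leaving out 1 library at a time turned further signs. In males Cd74 ranged from -0.23 to 0.32, H2-Aa from -0.24 to 0.35, H2-Ab1 from -0.32 to 0.28, H2-K1 from -0.30 to 0.03, H2-D1 from -0.26 to 0.03 and Ciita from -0.21 to 0.54. In A+/ki/ki over A+/wt/wt CD11b+ cells H2-K1 ranged from -0.14 to 0.07 and B2m from -0.02 to 0.15, and in cortex Ciita from -0.17 to 0.24, Cd86 from -0.06 to 0.14, Nlrc5 from -0.30 to 0.05 and Cd80 from -0.21 to 0.12. In A+/wt/wt over A-/wt/wt mice Ciita ranged from -0.03 to 0.31 and Cd80 from -0.26 to 0.01, and in A+/ki/ki over A-/wt/wt mice Cd74 from -0.11 to 0.28, H2-Aa from -0.40 to 0.10 and H2-Ab1 from -0.38 to 0.03. In the difference of effects H2-K1 ranged from -0.32 to 0.06 and Cd40 from -0.08 to 0.22. Of the values of single genes under an alternative, 1203 kept their sign and side of the threshold, 30 passed it, 7 lost it and 72 changed sign.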

Other observations

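Correlations between pairs of members were computed within 3 sets of CD11b+ libraries, A- females (n = 7), A+ females of both genotypes (n = 8) and males of both genotypes (n = 7), on log2 CPM with exact permutation tests, as 21 relations chosen after seeing the data. Libraries of a set share their scaling, and cell composition differs between them. The permutations were not kept within a genotype, so a difference between genotype means enters the correlations of the A+ and male sets. The class II chains H2-Aa and H2-Ab1 gave Pearson's r of 0.949, 0.994 and 0.984 (permutation p = 0.00139, 9.92e-05 and 0.000397, adjusted 0.00972, 0.00208 and 0.00417) and Spearman's rho of 0.929, 0.952 and 0.964 (permutation p = 0.00675, 0.00114 and 0.00278, adjusted 0.0472, 0.024 and 0.0292). Without the 2 libraries farthest from the median, r was 0.962, 0.959 and 0.979.

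Ciita and Cd74, a class II transactivator and a gene it is known to drive, gave r of 0.56, 0.799 and 0.554 (permutation p = 0.19, 0.00474 and 0.191, adjusted 0.267, 0.0199 and 0.267), rho of 0.714, 0.81 and 0.5 (permutation p = 0.0881, 0.0218 and 0.267, adjusted 0.168, 0.1 and 0.373), and r of 0.262, 0.764 and 0.843 without the 2 farthest libraries. Nlrc5 and B2m gave r of 0.0729, 0.81 and -0.0115 (permutation p = 0.881, 0.0136 and 0.978, adjusted 0.925, 0.0408 and 0.978) and rho of -0.214, 0.738 and 0.107 (permutation p = 0.662, 0.0458 and 0.84, adjusted 0.817, 0.112 and 0.906). Without the 2 farthest libraries r was 0.187, 0.705 and 0.637. Nlrc5 and H2-K1 gave r of 0.237, 0.612 and 0.241 (permutation p adjusted 0.757, 0.184 and 0.709). Ciita and H2-Aa gave r of 0.745, 0.76 and 0.623 (permutation p adjusted 0.0966, 0.0334 and 0.229). Their rho was 0.821, 0.738 and 0.5 (permutation p adjusted 0.112, 0.112 and 0.373). Without the 2 farthest libraries r was 0.406, 0.761 and 0.854. For B2m and H2-K1 r was 0.951, 0.723 and 0.792 (permutation p adjusted 0.0135, 0.0966 and 0.0776). Their rho was 0.786, 0.714 and 0.857 (permutation p adjusted 0.112, 0.121 and 0.1). Without the 2 farthest libraries r was 0.719, 0.605 and 0.538. For B2m and Cd74 r was 0.812, -0.351 and 0.498 (permutation p adjusted 0.0843, 0.536 and 0.326). The differences between the sets were not tested.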
